A study of Mus musculus with 4 samples.

Results

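The genes described here are 38 chromatin remodelers of the mouse: 26 subunits of the BAF and PBAF complexes, the 9 CHD genes, the ISWI ATPases Smarca1 and Smarca5, and the ATPase Ino80. They were chosen by name, as known members of these complexes and families, and each was found by its Ensembl identifier among the 45706 genes of the count table. RNA was measured in 4 libraries, all of 1 group: medial basal radial glial cells at stage E18.5, from mice of strain C57BL/6JOlaHsd and genotype Tubb-GFP/+, with DiI in the sample names. These cells are progenitors of the developing cortex with a fibre towards the pial surface and without contact with the ventricle. The labels say neither how reporter and dye served to isolate the cells nor whether the libraries came from separate animals, so every p-value describes the spread among 4 libraries, and that spread may be technical. There is no second group, and the results are levels within the cells and comparisons between genes within a library. The unit is TPM, a read count divided by gene length and scaled to the same total in each library. Each gene's length was that of its merged exons, so that levels can be compared between genes.

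Chromatin remodelers are ATP-driven machines that slide, evict or exchange nucleosomes. BAF complexes are built around 1 of the alternative ATPases Smarca4 (BRG1) and Smarca2 (BRM), and during neurogenesis several positions change paralog: progenitor complexes hold Actl6a, Phf10 or Dpf2, and Ss18, while complexes of postmitotic neurons hold Actl6b, Dpf1 or Dpf3, and Ss18l1 (CREST). CHD proteins carry paired chromodomains beside the ATPase, and Chd4, the ATPase of the NuRD corepressor complex, Chd7 and Chd8 are known for roles in brain development and, for Chd7 and Chd8, in human neurodevelopmental disorders.

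The libraries held between 26540656 and 34837657 counts, with at least 1 count for 23128 to 23900 genes, and no pair of libraries was as alike as counting noise would make it (chi-square per degree of freedom of 9.84 to 26.4). All 8 radial glia markers were above 1 TPM, as were 75.7% of tested protein-coding genes, led by Fabp7 at 4631 ± 382 TPM (SD, n = 4). Their summed level was 4774 to 5757 TPM across libraries, and Fabp7 made up most of it (4155 TPM in replicate 1). The median marker was at 47.5 TPM in this list and at 334 TPM among the neuronal markers given below. Of the 5 basal radial glia markers 4 were above 1 TPM, led by Tnc (264 ± 38.4 TPM). The other markers of this list above 1 TPM were, in falling order, Ptprz1, Lifr and Hopx. Fam107a was not called (0.568 ± 0.303 TPM). All 8 neuronal markers were above 1 TPM as well, with summed levels of 10707, 10417, 9601 and 9850 TPM in replicates 1 to 4, led by Tubb3 (6691 ± 496 TPM), and so were all 5 intermediate progenitor markers, summed to 1024 to 1135 TPM and led by Gadd45g (511 ± 64.1 TPM). The sums of markers of blood and vessels were 2374 to 4198 TPM for red cells (5 of 5 above 1 TPM, highest Hbb-bs), 16.8 to 38.4 TPM for microglia (5 of 6, highest C1qb) and 3.04 to 4.54 TPM for endothelium (1 of 5, highest Esam, with Cdh5 and Kdr called below). The part of these cell types in the levels given next was not tested, and in bulk RNA fewer cells of a type cannot be told apart from less RNA per cell.

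Every remodeler gene was expressed. All 38 lay above 1 TPM by edgeR's quasi-likelihood test of each gene against that level, with Benjamini-Hochberg adjustment over 20991 tested genes, where 65.9% of all tested genes and 75.7% of tested protein-coding genes did. Against 10 TPM, 29 of the 38 were above, against a background of 35.2% of all tested genes and 45.2% of protein-coding genes. Another 8 were below 10 TPM, against 58.0% and 48.7%, and Chd1 was not called (10.2 ± 1.25 TPM, edgeR adjusted p = 0.786). The median member was at 34.5 TPM, compared with 4.79 TPM over all tested genes and 8.997 TPM over protein-coding ones. Members also varied little between libraries, with a median coefficient of variation of 10.3%, against 19.8% over all tested genes and 14.6% over protein-coding ones, which are on average expressed at a lower level.

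**Figure D1:**
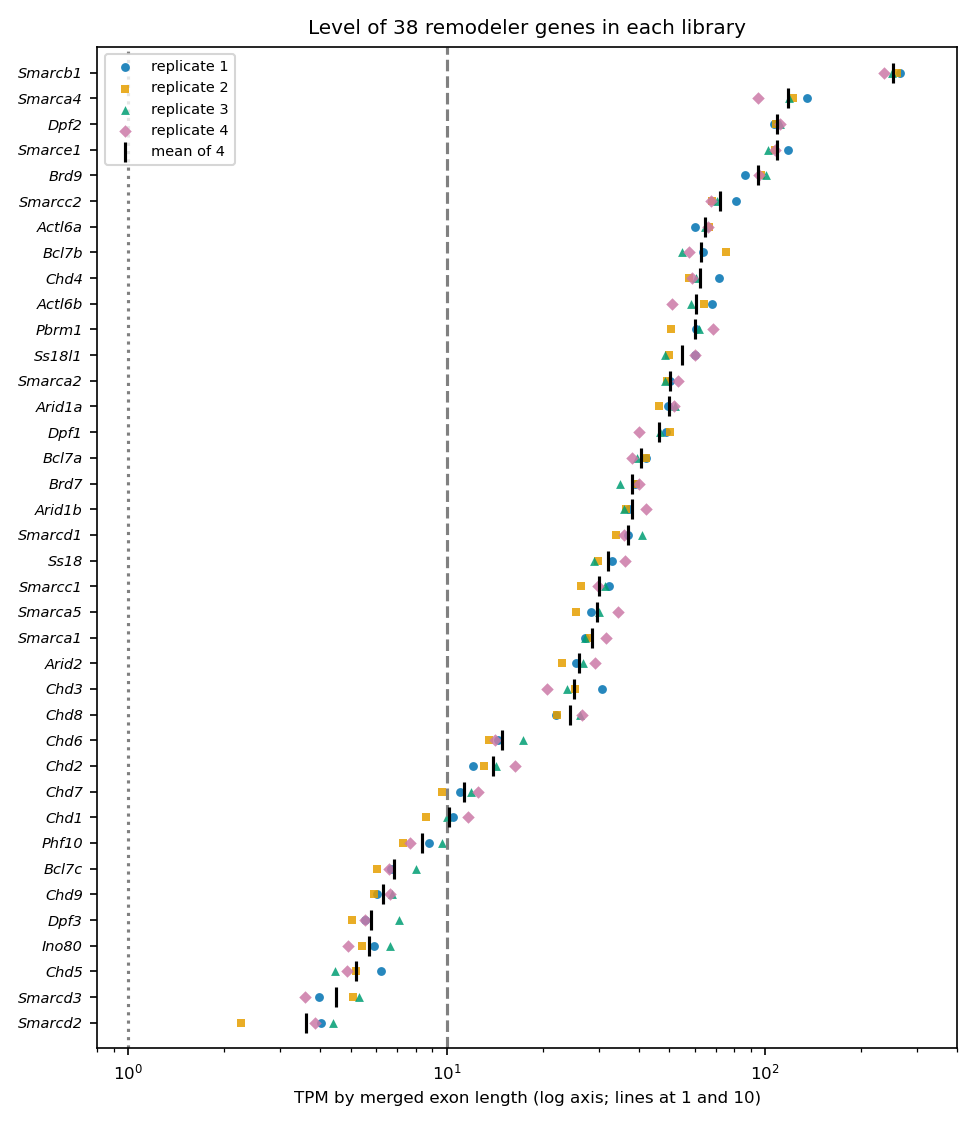
TPM (log axis) of each of the 38 genes in the 4 libraries, ordered by mean (black bar), with a symbol for each replicate and lines at 1 and 10 TPM. Every gene sits above 1 TPM in each library, and Smarcb1 (252 TPM) and Smarcd2 (3.63 TPM) have the highest and lowest means.

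The 2 ATPase and 4 core genes of BAF were all above 10 TPM by exon length, where 45.2% of protein-coding genes were. They ranged from 30.0 TPM (Smarcc1) to 252 TPM (Smarcb1), though Smarcc1 was below 10 TPM on the deposited scale. Smarcb1, the core subunit also called BAF47 or SNF5, had the highest level of all members, with 265, 258, 250 and 235 TPM in replicates 1 to 4. These 4 values lay above every other member's in every library. Smarca4, the BRG1 ATPase, measured 135, 122, 119 and 95.1 TPM, and Smarce1 (BAF57), a core subunit with an HMG domain, 118, 107, 102 and 107 TPM. Replicate 1 was the highest library for all 3 genes, and replicate 4 the lowest for Smarcb1 and Smarca4. With longest transcripts Smarca4 was at 90.6 TPM and Smarce1 at 175 TPM, so their order rests on the length used.

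The alternative ATPase Smarca2 measured 50.2, 49.1, 48.6 and 53.3 TPM, below Smarca4 in 4 of 4 libraries. The within-library log2 ratio of Smarca4 to Smarca2 was 1.20 ± 0.26 (SD, n = 4). The gap was widest in replicate 1 and narrowest in replicate 4, where the log2 ratio was 0.83. All ratios between genes are of TPM plus 1, and were tested by an exact two-sided sign-flip permutation over libraries, in which a single sign in all 4 libraries gives p = 0.125, the smallest p possible with 4 (0.136 after Benjamini-Hochberg adjustment over the 24 pairs). No pair could therefore pass 0.05, and the sign count and the SD carry the comparison. The ratio also rests on the length given to Smarca2: its merged exons span 14269 bases but its longest transcript 5921, and with longest transcripts as length the log2 ratio was -0.028.

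The scaffold pair went the other way, with Smarcc2 (BAF170) at 81.1, 68.1, 70.8 and 67.6 TPM and Smarcc1 (BAF155) at 32.3, 26.5, 31.4 and 29.9 TPM. Smarcc2 was higher in every library, and the log2 ratio of Smarcc1 to Smarcc2 was -1.23 ± 0.098. Both proteins are scaffolds on which the complex assembles, and Smarcc2 is known in the cortex as a regulator of progenitor number. Among the BAF60 genes, which link the complex to transcription factors, Smarcd1 stood alone with 37.1, 34.0, 40.9 and 36.1 TPM. Smarcd2 was at 4.02, 2.25, 4.38 and 3.86 TPM, and Smarcd3 (BAF60C) at 3.97, 5.07, 5.29 and 3.58 TPM. By merged exons these 2 had the lowest means of the 38 and were not separable, with Smarcd2 the lower in 2 of 4 libraries. Both lay below Smarcd1 in every library: the log2 ratio of Smarcd1 to Smarcd2 was 3.06 ± 0.24 and to Smarcd3 2.80 ± 0.22. For Smarcd3, 48.2% of the exonic bases overlap Chpf2 on the opposite strand, which had 126 to 211 counts, and without a strand setting in the sources the reads of the pair cannot be told apart. With unshared bases Smarcd3 was at 8.25 TPM and Smarcd2 at 3.46 TPM, and with principal transcripts they were at 8.75 and 3.14 TPM. The closeness of these 2 genes thus rests on the length used. The log2 ratio of Smarcd1 to Smarcd3 was 2.18 with unshared bases and 1.67 with principal transcripts.

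At the BAF53 position, an actin-related subunit, the RNA of the progenitor and neuronal paralogs was at similar levels by merged exons. Actl6a (BAF53A), the progenitor form, measured 60.3, 66.5, 64.8 and 66.3 TPM, and Actl6b (BAF53B), the neuronal form, 68.3, 64.1, 58.3 and 51.1 TPM. The neuronal gene was the higher of the pair in replicate 1 and the lower in the other 3 libraries, with overlapping ranges. The log2 ratio of Actl6a to Actl6b was 0.10 ± 0.23 (exact permutation p = 0.5), and Actl6b made up 48.3% ± 3.97 of their summed TPM. Actl6a lies on chromosome 3 (32706298 to 32726973, plus strand) and Actl6b on chromosome 5 (137553517 to 137569582, plus strand) in GRCm38.

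**Figure D2:**
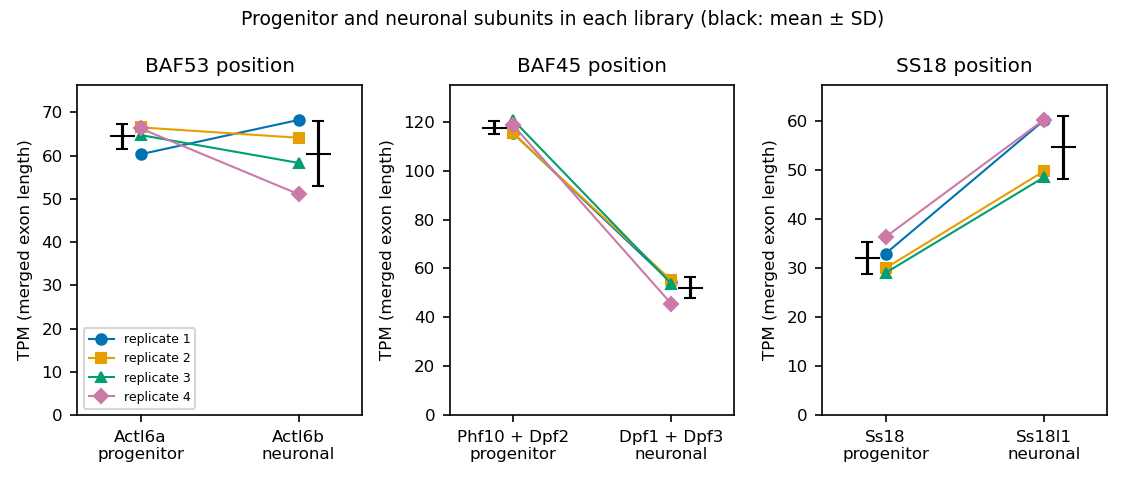
TPM of progenitor and neuronal genes at the BAF53, BAF45 and SS18 positions, with a line joining the values of each of the 4 libraries and the mean ± SD in black. Actl6a and Actl6b overlap, Ss18l1 is above Ss18 in every library, and the progenitor BAF45 sum (115 to 121 TPM) is above the neuronal sum (45.6 to 55.1 TPM).

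The balance at this position turned on the length given to each gene. With longest transcripts (2010 bases for Actl6a and 3100 for Actl6b) the log2 ratio was 0.58, and Actl6a was higher in 4 of 4 libraries. With the principal transcript of each gene (2010 and 1592 bases) it was -0.37, and Actl6b was higher in all 4. The counts themselves, before any length, were 9550 for Actl6a and 9875 for Actl6b over the 4 libraries. In addition 11.6% of the exonic bases of Actl6a overlap Mrpl47 on the opposite strand.

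In neurons Actl6a is known to be repressed by miR-9-3p (miR-9*) and miR-124 through its 3′ UTR, a step of the progenitor to neuron change of this subunit. The mature miRNA, from RefSeq, is shown with its seed (bases 2 to 8) in capitals, and the matching site of Actl6a with the 7 bases that match the seed in capitals, because this miRNA is known to act on Actl6a:
mmu-miR-9-3p: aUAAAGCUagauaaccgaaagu
Actl6a 3′ UTR site: tcacctcaacgtctgtAGCTTTAgtac
The site lies at chr3:32726624-32726650 (GRCm38, plus strand), and its capitals begin at base 38 of the 371-base 3′ UTR of the principal transcript. The motif searched was AGCTTTA on the transcript strand. It occurs in the 3′ UTR of 7 of the 38 members (18.4%), against 1748 of 15164 protein-coding genes (11.5%); the other 6 are Smarca2, Smarcc1, Arid2, Ino80, Smarce1 and Smarcd2. The 7 include genes of low level (Smarcd2, 3.63 TPM) and of high level (Smarce1, 109 TPM), and Actl6b has no match. A match is a description of the letters, not a measured binding site.

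The start regions of the pair, from 250 bases before to 50 after the RefSeq start (GRCm38.p6), are printed for the same position because both paralogs were measured at similar levels. CG dinucleotides, the sites of DNA methylation, are in capitals.
Actl6a, chr3:32708296-32708595, plus strand: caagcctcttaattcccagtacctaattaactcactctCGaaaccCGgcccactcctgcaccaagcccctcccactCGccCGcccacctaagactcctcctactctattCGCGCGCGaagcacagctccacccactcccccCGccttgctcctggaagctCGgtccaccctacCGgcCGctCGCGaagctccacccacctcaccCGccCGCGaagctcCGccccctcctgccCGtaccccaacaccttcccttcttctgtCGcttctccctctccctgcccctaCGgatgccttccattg
Actl6b, chr5:137553296-137553595, plus strand: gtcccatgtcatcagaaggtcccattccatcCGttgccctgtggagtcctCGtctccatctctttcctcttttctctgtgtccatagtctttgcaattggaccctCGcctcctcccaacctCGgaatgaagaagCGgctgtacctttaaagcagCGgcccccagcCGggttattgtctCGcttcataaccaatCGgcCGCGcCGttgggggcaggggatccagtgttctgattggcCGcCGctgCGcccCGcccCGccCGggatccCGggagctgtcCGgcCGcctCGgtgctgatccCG
They hold 21 and 23 CG dinucleotides (CG reads the same on both strands). Across the 35 start regions matched for 30 of the 38 members the median was 32, with a range of 1 to 62, against a median of 7 over all 32851 regions of the table. Both paralogs thus have fewer than the median member and more than the median of the table.

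The SS18 position read differently. Ss18, the progenitor form and the gene fused in synovial sarcoma, measured 32.9, 29.9, 29.0 and 36.3 TPM, and Ss18l1, the calcium-responsive neuronal form CREST, 60.0, 49.7, 48.4 and 60.1 TPM. The neuronal gene was higher in each library and the ranges did not meet. The log2 ratio of Ss18 to Ss18l1 was -0.75 ± 0.066 (exact permutation p = 0.125), and Ss18l1 made up 63.0% ± 1.08 of the sum. Length decides this sign too: the merged exons of Ss18 span 9419 bases, but its longest transcript 4153 and its principal one 3098, while Ss18l1 has 4343 by every rule. The log2 ratio was 0.41 with longest transcripts, 0.82 with principal transcripts and 0.35 in CPM, which uses no length. Over the 4 libraries 11389 counts fell on Ss18 and 8935 on Ss18l1.

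At the BAF45 position, a PHD-finger subunit that reads histone tails, the progenitor genes were higher. The sum of Phf10 and Dpf2 was 115, 115, 121 and 119 TPM and that of Dpf1 and Dpf3 54.3, 55.1, 53.8 and 45.6 TPM. Progenitor sums exceeded neuronal sums in 4 of 4 libraries, most in replicate 4, where the neuronal sum was lowest. The log2 ratio was 1.16 ± 0.14 (exact permutation p = 0.125), the neuronal share 30.7% ± 2.08, and the direction was the same with every length used.

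Within each side, 1 gene carried the sum. Dpf2 (BAF45D), on chromosome 19, was at 107, 108, 111 and 111 TPM, the steadiest of the 38 genes with a coefficient of variation of 2.05%. Phf10 (BAF45A), a subunit of PBAF linked to progenitor proliferation, was at 8.82, 7.29, 9.66 and 7.68 TPM. Of the neuronal genes, Dpf1 (BAF45B) was at 48.7, 50.1, 46.7 and 40.1 TPM and Dpf3 (BAF45C) at 5.53, 5.03, 7.10 and 5.54 TPM. Dpf2 was above Dpf1 in each library (log2 ratio 1.22 ± 0.16), and so was Phf10 above Dpf3 (0.46 ± 0.088), but the neuronal Dpf1 was above the progenitor Phf10 in all 4, with a log2 ratio of Phf10 to Dpf1 of -2.34 ± 0.20. Phf10 was called below 10 TPM (edgeR adjusted p = 0.0372), a call that was lost without replicate 1, 2 or 4 (adjusted p of 0.0631, 0.141 and 0.0977), and with the principal transcript of 1663 bases its level was 0.71 above 10 TPM on the log2 scale.

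The 4 ARID and polybromo genes and both bromodomain genes were above 10 TPM, where 45.2% of protein-coding genes were, though Arid1b and Arid2 were below it on the deposited scale. Arid1a (BAF250A), the DNA-binding subunit of canonical BAF, was at 49.6, 46.5, 52.2 and 51.8 TPM, and its paralog Arid1b, often mutated in Coffin-Siris syndrome, at 37.3, 36.5, 36.0 and 42.3 TPM. Arid1a was higher in each library (log2 ratio 0.39 ± 0.10). The PBAF genes were at 26.1 ± 2.61 TPM for Arid2 (BAF200), at 60.3 ± 7.40 TPM for Pbrm1, the polybromo subunit (60.5, 50.5, 62.0 and 68.4 TPM), and at 38.3 ± 2.28 TPM for Brd7, its bromodomain subunit. Brd9, the bromodomain subunit of the non-canonical complex, was at 86.5, 97.1, 101 and 95.2 TPM and above Brd7 in 4 of 4 libraries, with a log2 ratio of Brd7 to Brd9 of -1.29 ± 0.16.

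The BCL7 genes, small subunits with little known function, spread widely. Bcl7b was at 63.8, 75.2, 54.6 and 57.4 TPM, Bcl7a at 42.3, 42.3, 39.7 and 38.1 TPM, and Bcl7c at 6.70, 6.03, 7.98 and 6.59 TPM. Bcl7b exceeded the others in each library, with log2 ratios of Bcl7a to Bcl7b of -0.61 ± 0.15 and of Bcl7b to Bcl7c of 3.02 ± 0.33. The first ratio was 1.34 in CPM, without length, where the exons of Bcl7a span 9490 bases and those of Bcl7b 2404, and 0.16 on the deposited TPM. Bcl7c was below 10 TPM by merged exons (7222 bases), but with its principal transcript of 1132 bases it lay 1.53 above 10 TPM on the log2 scale.

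The CHD genes lay lower than the BAF genes, with a median of 13.96 TPM over 9 genes against 48.2 TPM over the 26 BAF and PBAF genes. Of the 9, 6 were above 10 TPM, against 45.2% of protein-coding genes, Chd5 and Chd9 were below, and Chd1 was not called. Their exons are also longer, with a median of 13786 bases against 6488, and this comparison of medians is a description, with no test.

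Chd4 was the highest CHD gene, at 71.6, 57.7, 60.8 and 58.7 TPM. Chd3, which can take its place in NuRD, was at 30.7, 25.3, 23.9 and 20.6 TPM, and Chd5, the neuronal member of this subfamily, at 6.23, 5.18, 4.46 and 4.86 TPM. The order Chd4, Chd3, Chd5 was kept in every library, and replicate 1 was the highest for all 3. The log2 ratio of Chd4 to Chd3 was 1.28 ± 0.14, that of Chd3 to Chd5 2.07 ± 0.13, and Chd5 was below 10 TPM (edgeR adjusted p = 2.32e-05).

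Of 13 partner genes of Chd4 in NuRD and ChAHP, 12 were above 1 TPM and 11 above 10 TPM, against 75.7% and 45.2% of protein-coding genes, and their median was 39.6 TPM. The histone-binding subunits Rbbp4 (221 ± 15.0 TPM) and Rbbp7 (101 ± 4.58 TPM) were the highest. Adnp, the homeodomain protein of ChAHP, was the exception at 0.481 ± 0.0827 TPM, called below 1 TPM (edgeR adjusted p = 0.00838). For Adnp 82.1% of the exonic bases overlap the gene model Gm20716 on the same strand, which was listed at 0 counts in all 4 libraries. The sources do not say how reads in both models were counted, and the side of 1 TPM on which Adnp lay turned on the length used. With the 957 unshared exonic bases as length, the level of Adnp was 2.57 TPM. That value takes every count of Adnp as lying in those bases, which was not tested.

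Of subfamily III, Chd8, a binder of beta-catenin, was at 22.1, 22.3, 26.3 and 26.6 TPM, Chd6 at 14.5, 13.6, 17.4 and 14.2 TPM, Chd7, the gene of CHARGE syndrome, at 11.0, 9.66, 11.9 and 12.6 TPM, and Chd9 at 6.02, 5.89, 6.73 and 6.64 TPM. Chd8 was above Chd7 and Chd6 in every library (log2 ratios 1.04 ± 0.077 and 0.67 ± 0.14), and Chd7 above Chd9 (0.74 ± 0.083). Chd7 was called above 10 TPM by a narrow margin of 0.17 on the log2 scale (edgeR adjusted p = 0.0414). That call was lost without replicate 1, 3 or 4, with adjusted p of 0.0807, 0.157 and 0.149. Chd9 has the longest exons of the 38 genes (23148 bases) and was not called with its longest transcript (edgeR adjusted p = 0.113).

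In subfamily I, Chd1, a remodeler of open chromatin at transcribed genes, measured 10.5, 8.61, 9.99 and 11.6 TPM, and Chd2, an epilepsy gene, 12.1, 13.1, 14.3 and 16.4 TPM. Chd2 was above Chd1 in all 4 libraries (log2 ratio of Chd1 to Chd2 of -0.42 ± 0.16), and both were highest in replicate 4. Of the Chd2 exonic bases 18.4% overlap 1810026B05Rik on the same strand, a gene with 1298 to 1916 counts.

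The ISWI ATPases, which space nucleosomes evenly, did not differ beyond the spread between libraries when compared per length. Smarca5 (SNF2H), the form of dividing cells, was at 28.5, 25.4, 30.1 and 34.6 TPM and Smarca1 (SNF2L), linked to neuronal differentiation, at 27.2, 28.1, 27.1 and 31.7 TPM. Smarca5 was higher in 3 of 4 libraries, and their log2 ratio was 0.05 ± 0.13 (exact permutation p = 0.5). In CPM, without length, it was 0.39 ± 0.14 and Smarca5 was higher in 4 of 4. All 9 ISWI partner genes were above 1 TPM and 6 above 10 TPM, against 75.7% and 45.2% of protein-coding genes. They were led by the histone-fold subunits Pole3 (158 ± 8.63 TPM) and Chrac1 (26.8 ± 2.26 TPM).

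Ino80, the ATPase that gives its complex the name, measured 5.90, 5.43, 6.61 and 4.89 TPM and was below 10 TPM (edgeR adjusted p = 7.52e-05). The 15 genes of the INO80 and SRCAP families listed with it lay mostly higher. Of these 15 genes, 14 were above 1 TPM and 10 above 10 TPM, against 75.7% and 45.2% of protein-coding genes. The shared AAA ATPases Ruvbl2 (187 ± 5.62 TPM) and Ruvbl1 (130 ± 10.9 TPM) were the highest. Srcap, the ATPase of the SRCAP complex, was at 0.721 ± 0.0699 TPM and called below 1 TPM (edgeR adjusted p = 0.0175). On the same strand 61.7% of its exonic bases are shared with Gm42715, which had 1247 to 1635 counts. With its 5523 unshared exonic bases as length Srcap was at 1.97 TPM, again taking every count as lying in those bases.

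The remaining partner lists were expressed without exception at 1 TPM. The 5 other BAF-associated genes were led by Actb (16511 ± 454 TPM), the beta-actin that is also a BAF subunit, and Bcl11a (61.0 ± 5.78 TPM), the transcription factor CTIP1. The 7 other SNF2-type ATPases were led by Atrx (58.0 ± 4.92 TPM) and Smarcal1 (27.7 ± 2.999 TPM). The 4 genes of the REST corepressor, which holds neuronal genes silent outside neurons, were led by Sin3a (37.6 ± 1.92 TPM) and Rcor1 (15.6 ± 2.57 TPM). In all, 51 of 53 partner genes were above 1 TPM and 33 above 10 TPM, against 75.7% and 45.2% of protein-coding genes. The other 2, Adnp and Srcap, had means above 1 TPM only if all their counts are placed in their unshared bases.

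Across all 24 pairs, 22 had a single sign in all 4 libraries, the exceptions being Actl6a with Actl6b and Smarca5 with Smarca1. In the order of levels from Smarcb1 to Smarcd2, however, 26 of 37 neighbouring genes differed by less than 1 SD of their log2 difference, and 12 kept their order in all 4 libraries. Thus Bcl7b, Chd4, Actl6b and Pbrm1 (60.3 to 62.8 TPM) cannot be ranked, nor can Dpf2 and Smarce1 (both 109 TPM).

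**Figure D3:**
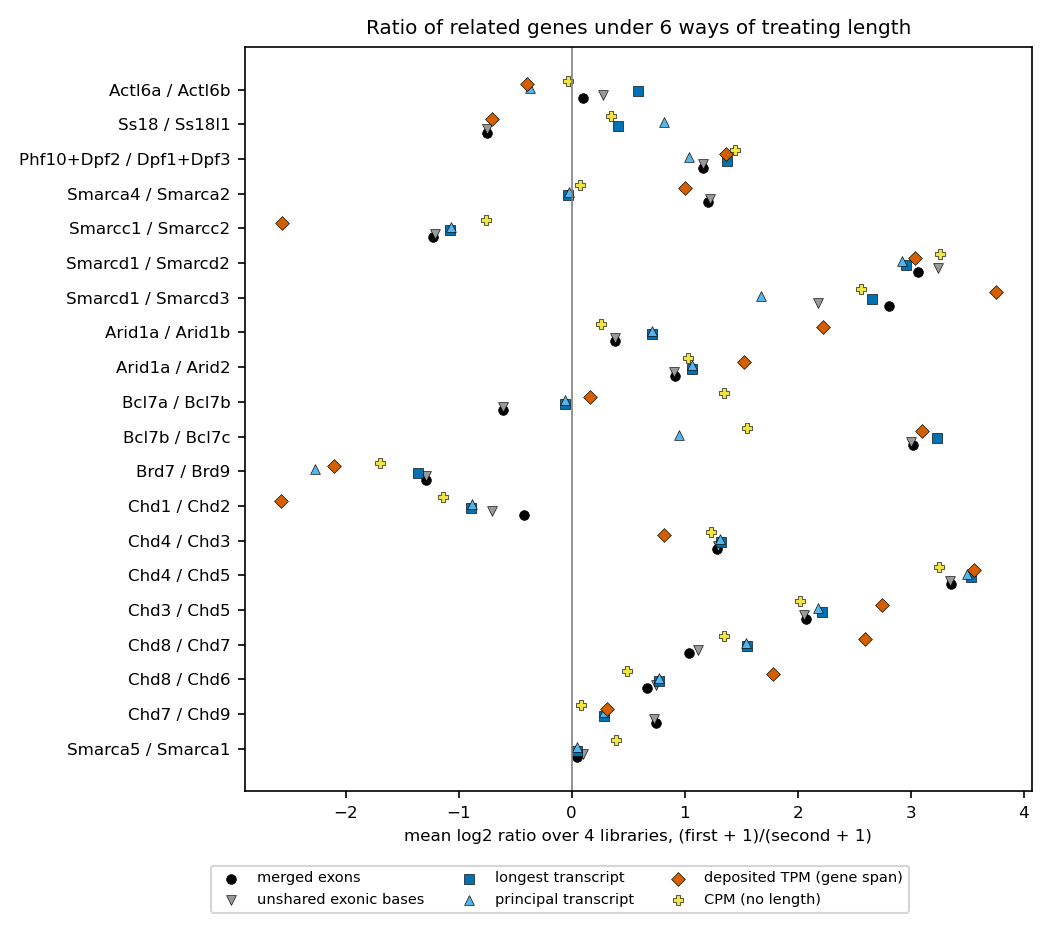
Log2 ratio (horizontal axis) of paralogs within a position or subfamily under 6 ways of treating length, each point the mean of 4 libraries. Ss18 with Ss18l1, Smarca4 with Smarca2, Bcl7a with Bcl7b and Actl6a with Actl6b cross the line at 0, while Smarcd1, Chd4 and Chd8 stay above their paralogs.

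No member was called more variable between libraries than genes of like abundance. By edgeR's residual quasi-dispersion against its trend, 0 of 16706 genes passed Benjamini-Hochberg adjustment (0.0%), and 797 (4.77%) had an unadjusted p under 0.05, among them 1 member. That member was Smarca4, whose dispersion was 4.71 times the trend, and Chd3 followed at 3.74 times. Both were highest in replicate 1 and lowest in replicate 4.

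In replicate 4 the members' levels moved with their base composition. There 13 members had their highest level, among them Pbrm1, Smarca5, Chd1 and Chd2, with a median transcript GC content of 47.9%. Another 9 had their lowest level there, among them Smarca4, Smarcb1, Actl6b, Dpf1 and Chd3, with a median GC content of 55.8%. Over all tested genes 31.7% were highest and 26.4% lowest in this library. As a description across genes, which share libraries and are not independent, Spearman's correlation of the deviation of replicate 4 from the gene's mean with GC content was -0.64 over the 38 members and -0.53 over 10345 genes of at least 5 TPM. In replicates 1, 2 and 3 it was 0.37, 0.41 and 0.0056 over the members. Actl6a has a GC content of 49.1% and Actl6b of 57.0%, and the log2 ratio of the pair was 0.37 in replicate 4 and -0.18 to 0.15 in the others; the part of GC content in that ratio was not tested. Exon length moved with the deviation of replicate 4 too, with a correlation of 0.39 over the members and 0.22 over the 10345 genes.

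**Figure D4:**
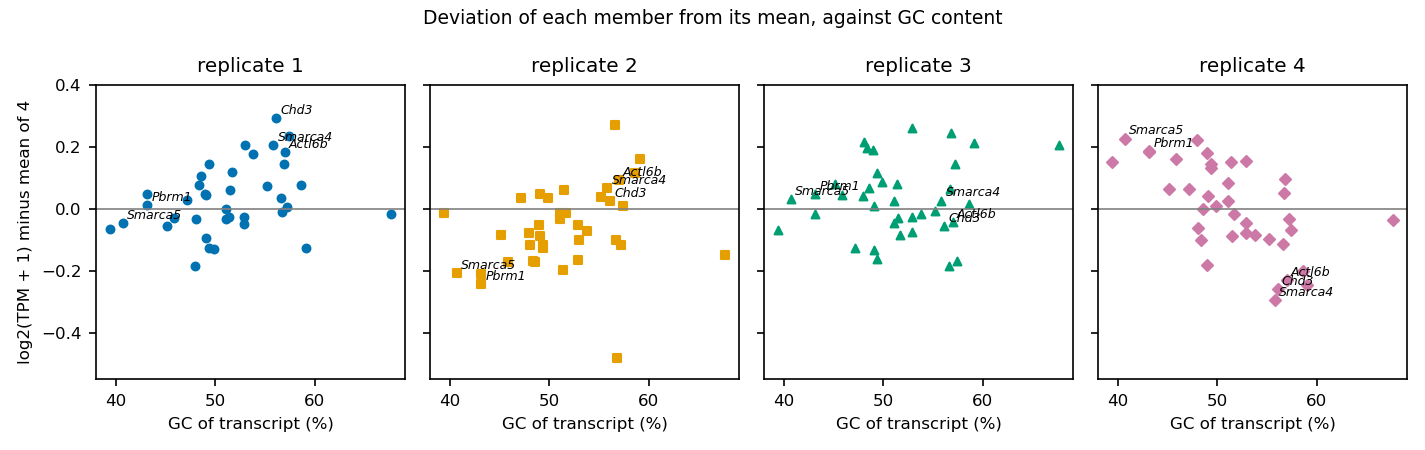
Deviation of each of the 38 genes from its mean over the libraries (log2 of TPM + 1, vertical axis) against the GC content of its transcript (percent, horizontal axis), with a panel for each replicate. In replicate 4, genes of higher GC content such as Smarca4 and Chd3 lie below 0 and those of lower GC content such as Smarca5 and Pbrm1 above it.

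The deposited TPM places many members lower. That table holds 37 of the 38, all but Smarca5, and its values imply that length was the whole gene span, introns included, for 35 of the 37 within 0.01 on the log2 scale. On that scale 35 of 37 were above 1 TPM and 2 below, and 21 were above and 15 below 10 TPM. Of all genes tested on that scale, a smaller set than by exons, most were above 1 TPM, as were the members. Most of all these genes were below 10 TPM, whereas most members were above it. Whether the members fell more than other genes between the scales was not tested. Dpf3, whose gene spans 273972 bases for 4225 of exon, was at 0.314 TPM against 5.80 TPM by exons, and Arid1b, spanning 353325 bases, at 4.76 TPM against 38.02 TPM. Chd1 was at 0.184 TPM against 10.2 TPM, and its implied length was 25.01 times its span, 1 of 2 genes of the table over 10 times. Among genes of short span the values went either way: Dpf2 was at 151 TPM against 109 TPM by exons and Smarcb1 at 283 TPM against 252 TPM, but Bcl7b was at 39.0 TPM against 62.8 TPM.

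**Figure D5:**
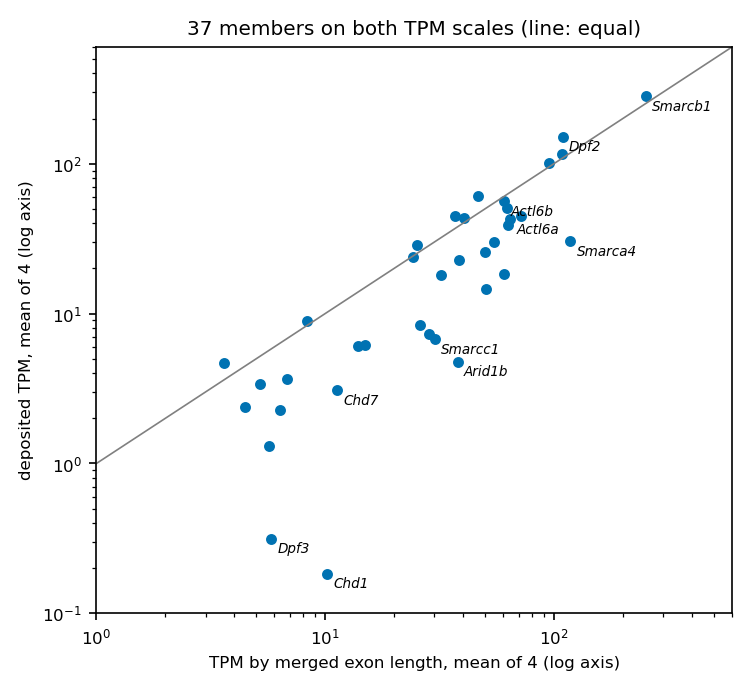
Mean TPM of the 37 genes in the deposited table (vertical, log axis) against mean TPM by exon length (horizontal, log axis), with the line of equality. Genes of long introns such as Arid1b and Dpf3 fall below the line, and Chd1 lies farthest from it.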

How the data were processed

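RNA of 4 libraries of 1 group was counted per gene. Per the labels' protocols, cDNA was primed at the poly-A tail, completed by template switching, amplified and sheared; no step that marks strand is described. Alternative lengths were tried because the isoforms read are not known. Per the submitters' processing notes, bcl2fastq 2.19.1 and STAR 2.5.2b with GRCm38 were used; the read counter, strandedness and gene annotation were not given in the sources used here. Whole-number counts of reads for 45706 genes, not normalized, were deposited by the authors, with a TPM table of 15648 genes, whose values follow gene spans for 11017 of 11580 genes (95.1%). TPM was recomputed from the deposited counts with merged exon lengths of GENCODE M21 (45143 identifiers matched). Genes with at least 10 counts in total were tested against 1 and 10 TPM with edgeR 4.0.16 (R 4.3.3), one-sample quasi-likelihood F test, Benjamini-Hochberg adjustment, threshold 0.05; variability used genes with at least 40 counts. The scripts were tested on simulated data. Pairs used log2 of TPM plus 1. DESeq2 1.42.0 was an alternative. All 38 members and all 5 basal radial glia markers were named. Of each partner list the 2 highest genes and any not called above 1 TPM were named. Of each other marker list its range and the highest gene were given. Members and lists were chosen with earlier results of these data known. Counting error alone is small for genes of many counts, where the 4 libraries limit the precision. It is not small for genes of few counts per library, such as Smarcd2 (91 to 151), Adnp (19 to 28) and Fam107a (11 to 43).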

Additional observations from a re-analysis of the deposited data

Results flagged for a closer look

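Of 62 sets of 4 values examined (the members' levels and the log2 ratios of pairs), 2 held a library that stood far from the other 3, and chance marks about 1 in 20 such sets. The log2 ratio of Ss18 to Ss18l1 was -0.85 in replicate 1, the lowest, with the other libraries at -0.72 to -0.71. The log2 ratio of Smarcd1 to Smarcd2 was 3.43 in replicate 2, the highest, with the others at 2.92 to 2.96; Smarcd2 had 91 counts there and 114 to 151 elsewhere.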

How the results depend on the processing

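The choice of length moved many results. The log2 ratio of Actl6a to Actl6b was 0.58 with longest transcripts, -0.39 on the deposited TPM and -0.37 with principal transcripts. Ss18 to Ss18l1 reversed to 0.41 (longest), 0.82 (principal) and 0.35 (CPM). The BAF45 ratio stayed positive at 1.37 (longest), 1.45 (CPM) and 1.37 (deposited). Smarca4 to Smarca2 reversed to -0.028 (longest) and -0.023 (principal), and Bcl7a to Bcl7b to 1.34 (CPM) and 0.16 (deposited). Of log2 levels against 1 TPM, Dpf3 (-1.67) and Chd1 (-2.44) reversed on the deposited scale. Against 10 TPM these reversed there: Smarcc1 (-0.57), Arid1b (-1.07), Arid2 (-0.26), Chd1 (-5.76), Chd2 (-0.72), Chd6 (-0.70), Chd7 (-1.70) and Smarca1 (-0.45). With principal transcripts Phf10 (0.71), Bcl7c (1.53) and Chd1 (-0.43) reversed, and with longest ones Chd1 (-0.24). By merged exons Chd1 had no call against 10 TPM (0.024, edgeR adjusted p = 0.786). For Chd1 the sign changed and a call below 10 TPM was gained in each of these runs. Smarcd3 was no longer called below 10 TPM with principal transcripts (adjusted p = 0.196) or unshared exonic bases (0.0747), nor Phf10 on the deposited scale (0.132) or with unshared bases (0.122), and Chd7 was not called above it with principal transcripts (0.866) or unshared bases (0.178). Leaving out each replicate in turn gave 0.0084 to 0.19 for Actl6a to Actl6b, with the lowest value without replicate 4, -0.76 to -0.72 for Ss18 to Ss18l1, 1.09 to 1.20 for BAF45, 38 members above 1 TPM, 28 to 29 above 10 TPM, 20 to 21 of the other 21 pairs with a single sign, and 0 members more variable than the trend. The alternative runs included TMM and DESeq2 scaling, the DESeq2 Wald test and no filter on low counts. Over all of them the counts of members above a level and of pairs with a single sign stayed within 1.5 times the reported ones. A pair counts there whichever sign it has, so a reversed pair such as Bcl7a with Bcl7b in CPM is still counted. The 1.5-fold rule cannot apply to members more variable than the trend, whose reported count was 0. Members below 10 TPM numbered 6 to 8, except on the deposited scale, where 15 were below 10 TPM and 2 below 1 TPM, against 8 and 0 by exons. Of the other pairs' values 66 moved by more than 1 SD without a change of sign and 139 did not. Principal transcripts and unshared bases were chosen after seeing the data. No paired analysis was possible because the labels give 1 group.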
